A study of Mus musculus with 6 samples.

Results

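The transcripts described here encode 39 proteins that hepatocytes make, most of them for release into the blood plasma. They were chosen by gene symbol from a fixed list, and all 39 were found among the 54532 genes of the deposited count table. RNA came from Kupffer cells, the macrophages that reside in liver sinusoids, sorted from male mice. The WT group holds 3 libraries of wild-type littermates, and the Trem2_KO group holds 3 libraries of mice lacking Trem2, a lipid-sensing macrophage receptor. Both groups began 8 weeks of high fat diet at an age of 8 weeks, so every library comes from mice on that diet. The labels give neither the kind of deletion nor its cell type, nor whether each library is 1 mouse. The p-values therefore measure the spread between these libraries, which may be technical.

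Hepatocytes make most of the soluble protein of plasma. Clotting factors circulate as inactive precursors until a cascade of proteases ends in a fibrin mesh, which plasmin dissolves. Carrier proteins move hormones, metals, vitamins and lipids, and acute phase proteins are those whose synthesis shifts in inflammation, largely through interleukin 6, STAT3 and C/EBP factors. The members were sorted by textbook function into 12 clotting genes, 8 carriers, 9 acute phase genes and 10 protease inhibitors and matrix proteins. Each gene was placed once, although several, such as the fibrinogen chains, fit more than 1 class. Saa4, a constitutive serum amyloid A gene, was counted as acute phase, and Itih4, an acute phase member of its family, as an inhibitor. The class counts depend on such placements. Ttpa, counted among the carriers, encodes the alpha-tocopherol transfer protein, which works inside hepatocytes.

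The libraries held 15799351 to 17135603 reads. Levels within a gene are given as CPM, counts scaled to library size by the TMM method. Trem2 itself read 84.7, 90.0 and 84.2 CPM in the WT libraries and 16.6, 17.3 and 14.5 in the Trem2_KO libraries, in the direction of the labels. The Kupffer cell marker Clec4f was at 12312 ± 333 CPM in WT and 11181 ± 158 in Trem2_KO (SD, n = 3), and all 12 markers of that list were tested. A change is called at an adjusted p under 0.05 in edgeR's quasi-likelihood test over all 13776 genes tested. Of those genes 30.3% were called, 15.3% higher and 15.1% lower in Trem2_KO (2103 and 2078 genes). Scaling by total counts moved that split to 2515 and 1592.

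All 39 transcripts were detected and tested in these macrophage libraries. Together they made up 0.185%, 0.192% and 0.191% of the reads in the WT libraries and 0.184%, 0.179% and 0.183% in the Trem2_KO libraries. Their summed level was 1911 ± 44.2 CPM in WT and 1798 ± 24.9 in Trem2_KO (SD, n = 3), 0.941 times the WT level. The groups did not overlap, since the lowest WT library held 1862 CPM and the highest Trem2_KO library 1816. In bulk RNA, fewer cells of a type and less RNA per cell cannot be told apart. RNA of hepatocytes in the sort, RNA taken up by macrophages and transcription in the macrophages cannot be told apart here either.

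The levels of the members spread widely. Levels between genes are compared per length, as deposited FPKM averaged over the 6 libraries. Alb, which encodes albumin, stood far above the rest at 337 FPKM. It was followed by the thyroxine carrier Ttr at 53.4, the haemoglobin-binding Hp at 50.9, the haem-binding Hpx at 44.1 and the vitamin D-binding Gc at 37.6 FPKM. The median member was at 7.5 FPKM and the lowest, F9, at 1.14. Of the 8 members over 20 FPKM, 1 was called higher and 2 lower. Of the 16 members under 5 FPKM, 3 were called higher and 3 lower. Among all genes tested 15.3% were called higher and 15.1% lower, and bands this small cannot be told from those shares. Most of the 12 members called lower had levels between these bands.

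The members did not change as a block. Of the 39, 12 were called lower, 5 were called higher and 22 were not called. That is 30.8% lower against 15.1% of all genes tested, and 12.8% higher against 15.3%. The median log2 change was -0.05, against -0.01 over all genes tested, and the median absolute change was 0.21 against 0.16. All 3 Trem2_KO libraries lay below all 3 WT libraries for 14 members and above them for 6, which is 35.9% and 15.4%. Among all genes tested the groups did not overlap for 41.6%, with 20.7% below and 20.9% above. Of the 17 called members, 12 stayed called when any 1 library was left out, 3 of them higher (Hpx, Itih4 and Ttpa) and 9 lower (Fgb, Fgg, Trf, Rbp4, Saa4, Hamp, Ahsg, Mug1 and Vtn). The 5 that did not were Fga, F5, Saa2, Fetub and Itih2. Without WT replicate 2, 3 members were called higher and 10 lower, and without Trem2_KO replicate 2, 3 were called higher and 9 lower. With a biological coefficient of variation of 0.2 set for every gene in place of the estimated 0.0378, 2 of the 17, Hamp and Ttpa, were still called.

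**Figure D1:**
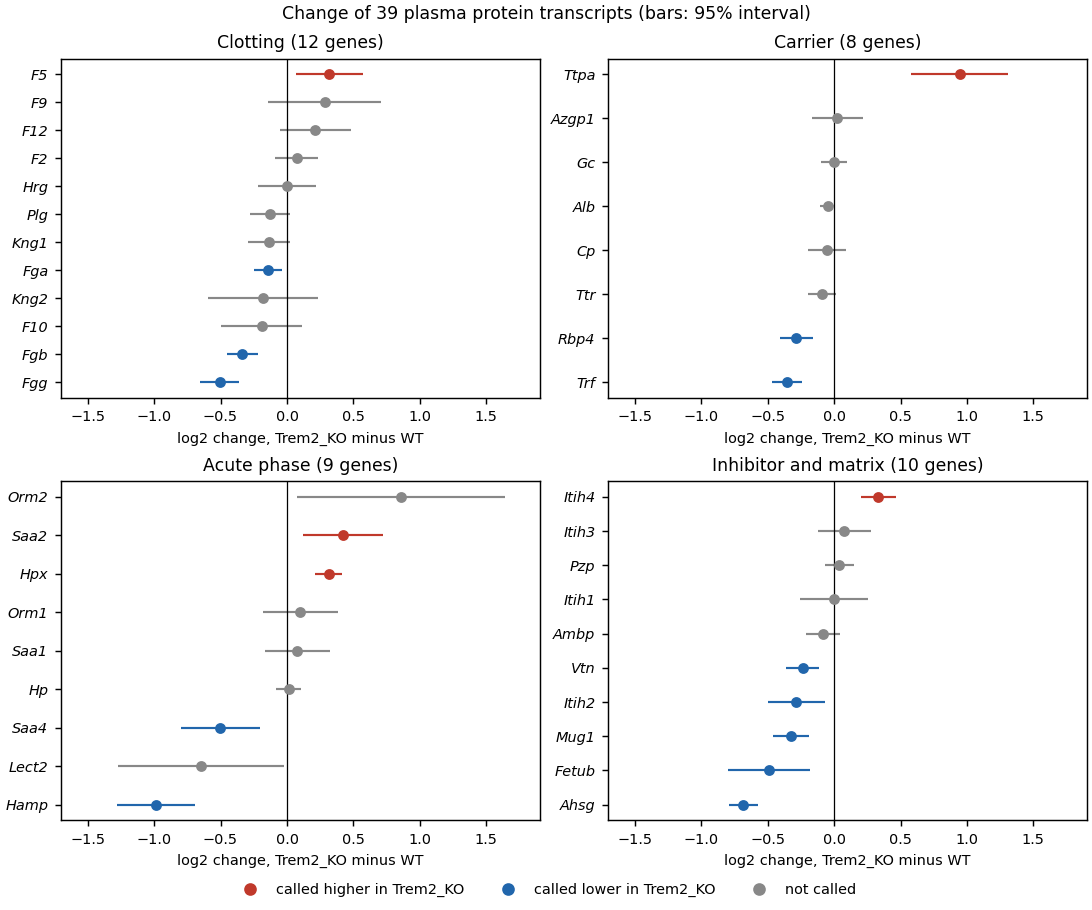
Log2 change of each of the 39 transcripts (Trem2_KO minus WT, horizontal axis) by class, with the 95% interval of the edgeR fit, not adjusted for the number of genes. Red and blue points are called higher and lower, and grey points are not called. The carriers lie near 0 apart from Ttpa at 0.95, Rbp4 at -0.28 and Trf at -0.35.

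Among the 12 clotting genes, 3 were called lower and 1 higher, with a median log2 change of -0.13 (-0.0732 without WT replicate 2). That is 8.3% higher and 25% lower, against 15.3% and 15.1% of all genes tested. The 3 lower ones were the fibrinogen chains. Fibrinogen, the precursor of fibrin, is assembled from alpha, beta and gamma chains, which Fga, Fgb and Fgg encode. The gamma chain gene Fgg had WT levels of 40.6, 41.8 and 44.7 CPM and Trem2_KO levels of 32, 32.1 and 25.3. It changed by -0.51 on the log2 scale (SE 0.0721, edgeR adjusted p = 3.63e-07). The beta chain gene Fgb gave 52.7, 57.7 and 57.4 CPM across WT and 48, 42.4 and 42.4 across Trem2_KO. Its log2 change was -0.34 (SE 0.0585, edgeR adjusted p = 7.18e-06), and for both genes every Trem2_KO library was below every WT library.

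The alpha chain gene Fga moved least of the 3. It read 58.7, 57.3 and 57.8 CPM in the WT libraries, against 54.4, 52.5 and 50.4 in the Trem2_KO libraries, a log2 change of -0.14 (SE 0.0536, edgeR adjusted p = 0.0348). The libraries did not overlap, but the call was lost without WT replicate 1, 2 or 3 and without Trem2_KO replicate 2 or 3 (edgeR adjusted p = 0.0974, 0.0522, 0.0534, 0.0798 and 0.154). It was also lost with total counts (adjusted p = 0.105) and with DESeq2 (adjusted p = 0.122).

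The fibrinogen genes are neighbours on chromosome 3, in the order Fgg, Fga, Fgb between 83007724 and 83049863 (GRCm38), a span of 42.1 kb. Their upstream sequences are shown because these neighbouring members were all called in the same direction, by different amounts. Each run is the 250 bases before the RefSeq transcript start (GRCm38.p6), 5′ to 3′ on the strand of the gene. Capitals mark matches on either strand to the C/EBP motif TTGCNNAA and the STAT motif TTCNNNGAA. The windows are chr3:83007474-83007723 (plus strand) for Fgg, chr3:83025903-83026152 (plus strand) for Fga and chr3:83049864-83050113 (minus strand) for Fgb.
Fgg: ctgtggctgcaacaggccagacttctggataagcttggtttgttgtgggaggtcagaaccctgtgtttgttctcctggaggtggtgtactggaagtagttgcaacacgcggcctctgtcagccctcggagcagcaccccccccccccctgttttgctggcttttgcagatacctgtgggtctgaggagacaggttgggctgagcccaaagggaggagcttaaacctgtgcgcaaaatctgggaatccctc
Fga: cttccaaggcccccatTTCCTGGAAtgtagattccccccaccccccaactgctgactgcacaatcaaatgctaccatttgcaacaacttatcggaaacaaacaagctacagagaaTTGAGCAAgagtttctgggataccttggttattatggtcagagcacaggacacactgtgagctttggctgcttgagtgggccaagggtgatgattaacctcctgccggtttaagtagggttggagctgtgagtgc
Fgb: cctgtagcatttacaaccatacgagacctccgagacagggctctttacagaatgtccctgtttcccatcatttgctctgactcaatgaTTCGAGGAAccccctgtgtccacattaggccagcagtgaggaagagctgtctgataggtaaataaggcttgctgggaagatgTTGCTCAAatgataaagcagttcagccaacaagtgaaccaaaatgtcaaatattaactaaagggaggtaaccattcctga
The Fga and Fgb windows each held 1 match to both motifs, in the same order. The C/EBP match was nearer the start, at -135 in Fga and -80 in Fgb, and the STAT match lay at -234 and -162. The Fgg window held none of these letters.

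The remaining clotting genes were called in 1 case. F5, whose product is the cofactor that speeds thrombin formation, had WT levels of 8.29, 7.98 and 7.79 CPM and Trem2_KO levels of 8.95, 10.8 and 10.2. Its log2 change was 0.32 (SE 0.125, edgeR adjusted p = 0.0466), and every Trem2_KO library was above every WT library. The call was lost without WT replicate 1, 2 or 3 and without Trem2_KO replicate 2 or 3 (edgeR adjusted p = 0.0715, 0.103, 0.114, 0.192 and 0.109). It was also lost with DESeq2 (adjusted p = 0.186) and with the replicate number as a block in edgeR (adjusted p = 0.0511). Platelets store factor V too. Of 8 megakaryocyte and platelet markers, 5 were tested, 1 was called higher (Treml1, 1.32) and 0 lower. Their summed level was 19.3 to 24.8 CPM in WT and 25.5 to 27.4 in Trem2_KO, most of it Pf4, and 2.68 to 4.09 CPM in WT and 4.96 to 7.34 in Trem2_KO without Pf4, with Gp1bb at 0 in every library. Their part in the F5 result was not tested.

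The 3 uncalled clotting genes of highest level per length were Kng1, Plg and F2. The kininogen gene Kng1, which encodes a precursor of bradykinin, gave 23.5, 27.5 and 25.8 CPM across WT and 23.3, 21.9 and 24.9 across Trem2_KO. The groups overlapped, and its log2 change of -0.13 had a 95% interval of -0.29 to 0.02. Plg, the plasminogen gene, read 25, 29.1 and 26.3 CPM in the WT libraries, against 24.5, 24.8 and 24.3 in the Trem2_KO libraries. Every Trem2_KO library was below every WT library, while the interval of its log2 change of -0.13 was -0.28 to 0.02. The prothrombin gene F2 had WT levels of 25.8, 27.6 and 29.6 CPM and Trem2_KO levels of 30.1, 32.1 and 24.9. Its groups overlapped (0.07, interval -0.09 to 0.23).

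F12, which encodes the factor that starts contact activation, gave 7.59, 6.7 and 6.83 CPM across WT and 7.97, 8.18 and 8.34 across Trem2_KO. The Trem2_KO libraries were all above the WT libraries, but its log2 change of 0.21 (SE 0.133, edgeR adjusted p = 0.239) was not called. Hrg, which encodes a histidine-rich glycoprotein that binds heparin and plasminogen, had overlapping groups and an interval of -0.22 to 0.22. F9, F10 and Kng2 were not called, with log2 intervals of -0.14 to 0.71, -0.49 to 0.11 and -0.60 to 0.23. The intervals of F9 and Kng2 are wider than those of the fibrinogen genes, with 308 and 320 reads over the 6 libraries. Kng2 shares 19.4% of its 50-base stretches with Kng1 and overlaps the pseudogene Gm6493, which had 340 reads, so its value is uncertain.

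Other genes of clotting and fibrinolysis went both ways. Of 22 on that list 21 were tested, and 5 were called higher and 4 lower (23.8% higher and 19% lower, against 15.3% and 15.1% of all genes tested). The median log2 change was -0.07. Thbd, which encodes thrombomodulin, an endothelial brake on thrombin, rose by 0.25 on the log2 scale (SE 0.0443, edgeR adjusted p = 1.09e-05), and the urokinase receptor gene Plaur rose by 0.40. Pros1, which encodes the anticoagulant protein S, changed by -0.19, and F8, the factor VIII gene, which liver endothelium expresses, rose by 0.60. Proc, the hepatocyte gene for protein C, measured 8.98 ± 0.706 CPM in WT and 6.56 ± 1.18 in Trem2_KO (SD, n = 3), a called change of -0.45. Serpinc1, the hepatocyte gene for antithrombin, measured 26.4 ± 2.54 CPM in WT and 27.5 ± 0.44 in Trem2_KO (SD, n = 3) and was not called. Proc and Serpinc1 were picked with their values in view. In the same libraries 10 of 12 sinusoidal endothelial markers were called higher and 1, Cdh5, lower. Cdh5 made up most of the summed level of those 12, which was 1996 to 2013 CPM in WT and 1967 to 1978 in Trem2_KO. The other 11 summed to 743 to 753 CPM in WT and 842 to 849 in Trem2_KO, and the 12 had a median log2 change of 0.53. Their part in the rises of Thbd and F8 was not tested.

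**Figure D2:**
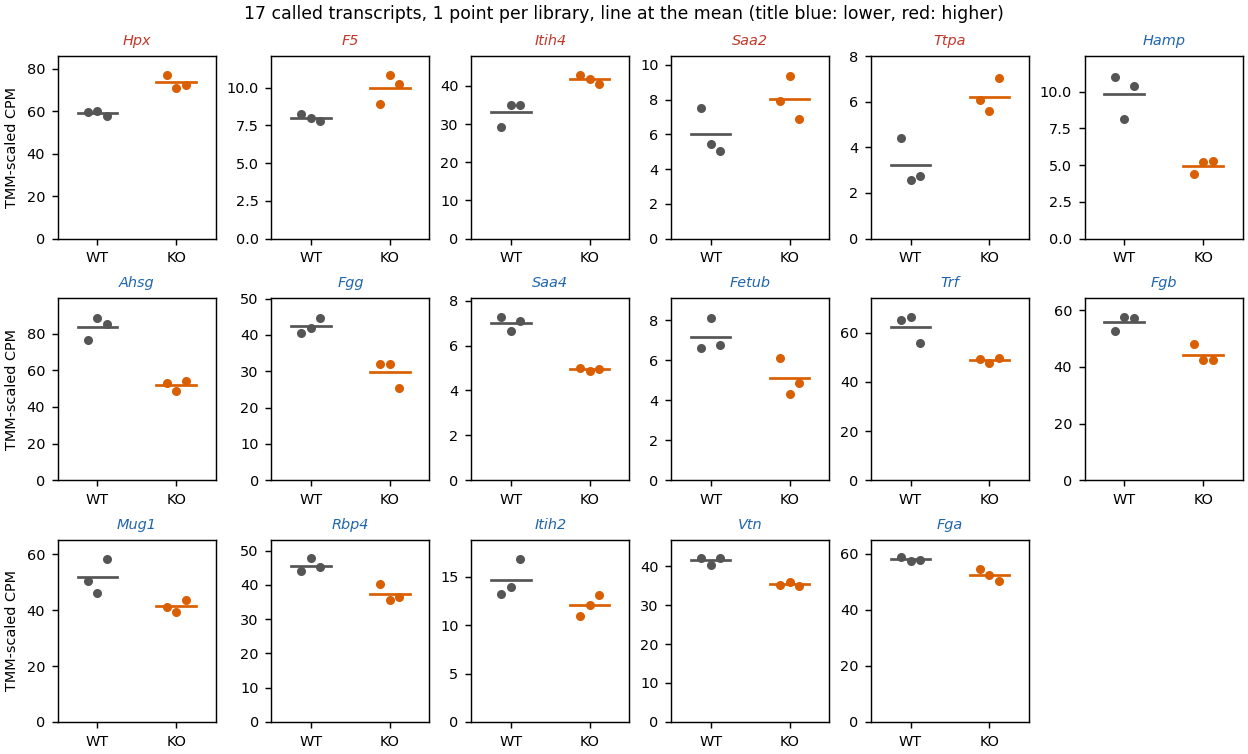
TMM-scaled CPM of the 17 called transcripts in each library (vertical axes start at 0), with 1 point per library and a line at the group mean. The groups overlap for Saa2, where WT replicate 1 at 7.52 CPM lies above Trem2_KO replicate 3 at 6.87 CPM, and are apart in the other panels.

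The carriers had the smallest median absolute log2 change of the 4 classes, 0.07. Of 8 genes, 2 were called lower and 1 higher (12.5% higher and 25% lower, against 15.3% and 15.1% of all genes tested). Their median log2 change was -0.05, with -0.0131 without Trem2_KO replicate 2 and -0.083 without Trem2_KO replicate 3. Alb, the gene of the main plasma protein (ENSMUSG00000029368, chromosome 5, 90460897 to 90476602, GRCm38), read 783, 826 and 806 CPM in the WT libraries, against 769, 762 and 805 in the Trem2_KO libraries. The groups overlapped, and its log2 change of -0.05 had a 95% interval of -0.10 to 0.01, the narrowest of the members. Ttr had WT levels of 63.8, 67.2 and 71.4 CPM and Trem2_KO levels of 65.5, 60.8 and 63.4 (-0.09, interval -0.20 to 0.01). Gc gave 69.2, 70.2 and 69.5 CPM across WT and 71.8, 65.8 and 71.4 across Trem2_KO (interval -0.10 to 0.10). None of these 3 abundant carriers was called, and the groups overlapped in each.

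The transferrin and retinol-binding protein 4 genes were called lower. Trf, whose product carries iron in plasma (ENSMUSG00000032554, chromosome 9, 103204001 to 103230444, GRCm38), read 65.2, 66.5 and 55.7 CPM in the WT libraries, against 49.5, 47.5 and 49.7 in the Trem2_KO libraries. Its log2 change was -0.35 (SE 0.0578, edgeR adjusted p = 2.23e-06). WT replicate 3 was lower than the other two WT libraries and still above every Trem2_KO library. The annotated gene Gm20425, with 0 reads, overlaps Trf on the same strand and holds 58.5% of its 50-base stretches. How reads fitting both genes were counted is not stated, so the level of Trf is uncertain. Rbp4, whose product carries vitamin A from the liver, had WT levels of 43.9, 47.8 and 45.3 CPM and Trem2_KO levels of 40.2, 35.7 and 36.5. It changed by -0.28 (SE 0.0615, edgeR adjusted p = 0.000235), with no overlap between the groups.

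Ttpa (ENSMUSG00000073988, chromosome 4, 20007938 to 20030785, GRCm38) had the highest fitted rise of the members. It gave 4.4, 2.55 and 2.74 CPM across WT and 6.06, 5.58 and 7.05 across Trem2_KO, a fitted 1.93 times the WT level. The log2 change was 0.95 (SE 0.183, edgeR adjusted p = 4.47e-05), the groups were apart, and WT replicate 1 was the highest of the WT libraries. The gene of the copper-binding ferroxidase, Cp (-0.05, interval -0.20 to 0.09), and Azgp1, which encodes zinc-alpha-2-glycoprotein (0.03, interval -0.17 to 0.22), were not called. Cp had 2761 reads and overlaps Hps3 on the other strand, which had 11320, and the sources used here do not give the strand setting of the counting.

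The acute phase genes had the largest median absolute log2 change of the 4 classes, 0.42. That median is the value of Saa2, whose groups overlapped. Orm2 and Lect2 lie above it with 95 and 142 reads and SE of 0.389 and 0.311, and neither was called. The rank of this class therefore rests in part on imprecise values. Of 9 genes, 2 were called higher and 2 lower, with a median log2 change of 0.08. With 9 genes these shares (22.2% higher and 22.2% lower, against 15.3% and 15.1% of all genes tested) are near the background. The median was 0.0212 without WT replicate 1 and 0.00373 without Trem2_KO replicate 1. Hamp (ENSMUSG00000050440, chromosome 7, 30942368 to 30944032, GRCm38) encodes hepcidin, the peptide hormone that makes cells remove the iron exporter ferroportin. It read 11, 8.11 and 10.4 CPM in the WT libraries, against 4.39, 5.21 and 5.29 in the Trem2_KO libraries, a fitted 0.505 times the WT level. The log2 change of -0.99 (SE 0.144, edgeR adjusted p = 2.05e-07) was the largest fall of the members, and the groups were well apart. Hamp shares 16.6% of its 50-base stretches with Hamp2, which had 9 reads.

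Hpx, which encodes the haem scavenger hemopexin (ENSMUSG00000030895, chromosome 7, 105591613 to 105600137, GRCm38), had WT levels of 59.8, 60.3 and 57.7 CPM and Trem2_KO levels of 77.2, 71.1 and 72.4. It rose by 0.31 on the log2 scale (SE 0.0506, edgeR adjusted p = 1.71e-06), with every Trem2_KO library above every WT library. Hp, which encodes haptoglobin, gave 83, 82.4 and 79.6 CPM across WT and 83.3, 85.9 and 77.9 across Trem2_KO. The groups overlapped, and its log2 change of 0.01 had an interval of -0.08 to 0.11. Neutrophil precursors also make haptoglobin. Of 11 neutrophil markers 4 were tested, 1 was called lower (Csf3r, -0.10) and 0 higher, and Ly6g was at 0 in every library. Their sum, most of it Csf3r, was 193 to 209.8 CPM in WT and 183 to 192 in Trem2_KO.

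The serum amyloid A genes, neighbours within 26.3 kb of chromosome 7 (46727998 to 46754313, GRCm38), differed in direction. Saa4, the constitutive member of the family, read 7.27, 6.64 and 7.09 CPM in the WT libraries, against 5.02, 4.85 and 4.94 in the Trem2_KO libraries. It changed by -0.50 (SE 0.148, edgeR adjusted p = 0.00705), with the groups apart, while DESeq2 gave an adjusted p of 0.0544. Saa2, an inducible member, had WT levels of 7.52, 5.43 and 5.04 CPM and Trem2_KO levels of 7.91, 9.33 and 6.87. Its log2 change of 0.42 (SE 0.151, edgeR adjusted p = 0.0285) came with overlapping groups. The call was lost without WT replicate 2 or 3, without Trem2_KO replicate 1 or 2 (edgeR adjusted p = 0.126, 0.167, 0.0573 and 0.212) and with DESeq2 (adjusted p = 0.15). Saa1, also inducible, gave 10.2, 10.3 and 10.5 CPM across WT and 12.6, 11.5 and 8.7 across Trem2_KO (0.08, interval -0.17 to 0.32). Trem2_KO replicate 3 was below all WT libraries and the other two above them.

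The sequences before the Saa starts are shown because these neighbours were called in opposite directions. The windows of 250 bases are chr7:46732604-46732853 (minus strand) for Saa4, chr7:46742981-46743230 (minus strand) for Saa1 and chr7:46751583-46751832 (plus strand) for Saa2, from RefSeq (GRCm38.p6). Capitals again mark the C/EBP and STAT motifs.
Saa4: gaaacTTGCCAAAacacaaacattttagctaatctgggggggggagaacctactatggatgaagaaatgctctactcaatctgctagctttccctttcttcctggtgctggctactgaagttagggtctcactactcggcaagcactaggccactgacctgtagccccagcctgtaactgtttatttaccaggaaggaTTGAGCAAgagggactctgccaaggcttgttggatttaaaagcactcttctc
Saa1: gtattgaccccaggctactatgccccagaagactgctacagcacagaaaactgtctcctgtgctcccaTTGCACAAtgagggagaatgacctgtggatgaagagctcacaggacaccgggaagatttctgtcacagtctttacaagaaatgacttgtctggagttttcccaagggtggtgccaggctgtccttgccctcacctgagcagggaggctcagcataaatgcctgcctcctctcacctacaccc
Saa2: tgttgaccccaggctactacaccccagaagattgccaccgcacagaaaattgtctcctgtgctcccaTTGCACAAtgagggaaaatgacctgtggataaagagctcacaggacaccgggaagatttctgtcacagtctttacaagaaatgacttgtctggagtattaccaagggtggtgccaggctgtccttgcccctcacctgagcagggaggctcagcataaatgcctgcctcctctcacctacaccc
The Saa1 and Saa2 windows were identical at 95.6% of 249 aligned bases, and each held 1 C/EBP match, at -182 and -183. The Saa4 window held 2 C/EBP matches, at -245 and -52. None of the 3 held the STAT motif. Saa1 and Saa2 also share 31.1% and 30.0% of their 50-base transcript stretches with each other. Reads may have been split between them or left out, so their separate values are uncertain.

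The alpha-1-acid glycoprotein gene Orm1 read 7.01, 7.98 and 10.3 CPM in the WT libraries, against 7.27, 9.64 and 10.3 in the Trem2_KO libraries, with a log2 change of 0.10 (interval -0.18 to 0.38). Orm2 had the fewest reads of the members, 95 over the 6 libraries, and had WT levels of 0.574, 0.447 and 1.02 CPM and Trem2_KO levels of 1.15, 1.03 and 1.53. Its groups were apart, but the log2 change of 0.86 (SE 0.389, edgeR adjusted p = 0.0906) was not called and passed only without WT replicate 3 (1.26, adjusted p = 0.0376). Orm1 and Orm2 share 20.4% of their 50-base stretches, so their separate values are uncertain. Lect2, which encodes a chemotactic factor of hepatocytes, gave 1.59, 2.04 and 1.72 CPM across WT and 1.1, 0.97 and 1.35 across Trem2_KO. Its change of -0.64 (SE 0.311, edgeR adjusted p = 0.114) was not called, though the groups were apart.

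Genes of the signals that drive acute phase synthesis were read from the same libraries. Of 14, 8 were called higher and 1 lower (57.1% higher and 7.1% lower, against 15.3% and 15.1% of all genes tested), with a median log2 change of 0.20. Il6st, the gene of the shared interleukin 6 receptor subunit, rose by 0.32 (SE 0.0421, edgeR adjusted p = 1.52e-08) and the cytokine gene Tnf by 0.66. Lifr, the receptor gene for leukaemia inhibitory factor, rose by 0.35, with overlapping groups, and the feedback inhibitor gene Socs3 by 0.32. The 8 also include small changes, in Il6ra (0.09), Jak1 (0.08) and Cebpb (0.08, with overlapping groups). Cebpd, which encodes a C/EBP factor, changed by -0.19 and was the 1 called lower. Il6, Il1b and Stat3 had log2 changes of -0.10, -0.00468 and -0.04 and were not called. Il6ra, Jak1, Cebpb, Cebpd, Il6, Il1b and Stat3 were picked with their values in view. Macrophages also express many of these genes, and their part in the members' changes was not tested.

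The protease inhibitors and matrix proteins had 5 of 10 genes called lower and 1 called higher, with a median log2 change of -0.16. That is 10% higher and 50% lower, against 15.3% and 15.1% of all genes tested. Without Trem2_KO replicate 2, 3 were called lower and 1 higher. Ahsg (ENSMUSG00000022868, chromosome 16, 22891277 to 22899449, GRCm38) encodes fetuin-A, a plasma glycoprotein that keeps calcium phosphate in solution. It read 76.3, 88.5 and 85.5 CPM in the WT libraries, against 53.2, 48.7 and 53.9 in the Trem2_KO libraries, a fitted 0.623 times the WT level. Its log2 change of -0.68 (SE 0.0542) had the smallest p of the members (edgeR adjusted p = 7.23e-15). Its relative Fetub, the fetuin-B gene, had WT levels of 6.63, 8.11 and 6.77 CPM and Trem2_KO levels of 6.12, 4.3 and 4.88. That was a log2 change of -0.49 (SE 0.154, edgeR adjusted p = 0.012), and both fetuin genes had every Trem2_KO library below every WT library. The Fetub call was lost without WT replicate 2 or Trem2_KO replicate 2 (edgeR adjusted p = 0.0956 and 0.0975) and with DESeq2 (adjusted p = 0.0817).

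Vtn, Mug1 and Itih2 were the other falls of this class. Vtn, which encodes vitronectin, an adhesive protein of plasma and matrix, gave 42.2, 40.4 and 42.2 CPM across WT and 35.2, 35.9 and 34.9 across Trem2_KO (-0.24, SE 0.0611, edgeR adjusted p = 0.00204). Mug1, which encodes a broad protease trap of rodents, read 50.5, 46.3 and 58.4 CPM in the WT libraries, against 41.2, 39.3 and 43.7 in the Trem2_KO libraries (-0.32, SE 0.0663, edgeR adjusted p = 0.000238). Neither gene's groups overlapped. Mug1 shares 26.5% of its 50-base stretches with other genes, 16.7% with Mug2, which had 903 reads, so its value is uncertain. Itih2, a heavy chain gene of the inter-alpha-trypsin inhibitor, had WT levels of 13.3, 13.9 and 16.9 CPM and Trem2_KO levels of 10.9, 12.1 and 13.2 (-0.28, SE 0.108, edgeR adjusted p = 0.0409). The groups were apart. Its call was lost without WT replicate 3 (-0.17, edgeR adjusted p = 0.296) and without Trem2_KO replicate 1 or 2 (adjusted p = 0.197 and 0.0876). It was also lost with total counts (adjusted p = 0.0714) and with DESeq2 (adjusted p = 0.167).

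Among the inter-alpha-trypsin inhibitor heavy chain genes, 1 was called lower (Itih2) and 1 higher (Itih4). Of all genes tested 15.1% were called lower and 15.3% higher, and so few genes cannot be told from those shares. The Itih2 call was also lost in the settings named above. Itih4, an acute phase member of the family, gave 29.3, 34.9 and 35.1 CPM across WT and 42.8, 41.7 and 40.6 across Trem2_KO. It rose by 0.33 on the log2 scale (SE 0.0658, edgeR adjusted p = 6.39e-05), with the groups apart. Its neighbours on chromosome 14, Itih3 (0.08, interval -0.12 to 0.28) and Itih1 (interval -0.26 to 0.26), were not called. The 3 genes lie within 56.8 kb, between 30886476 and 30943289 (GRCm38).

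The uncalled genes of highest level in this class had overlapping groups. Ambp, which encodes alpha-1-microglobulin and bikunin, read 36.4, 37.7 and 38.2 CPM in the WT libraries, against 36.9, 34.4 and 34.7 in the Trem2_KO libraries (-0.08, interval -0.21 to 0.04). Pzp, which encodes a protease trap related to that of Mug1, had WT levels of 56.6, 62.8 and 59 CPM and Trem2_KO levels of 64.9, 59.8 and 58.5 (0.04, interval -0.07 to 0.15). Itih3 gave 13.8, 14.8 and 13.4 CPM across WT and 14.9, 15.4 and 14.1 across Trem2_KO.

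**Figure D3:**
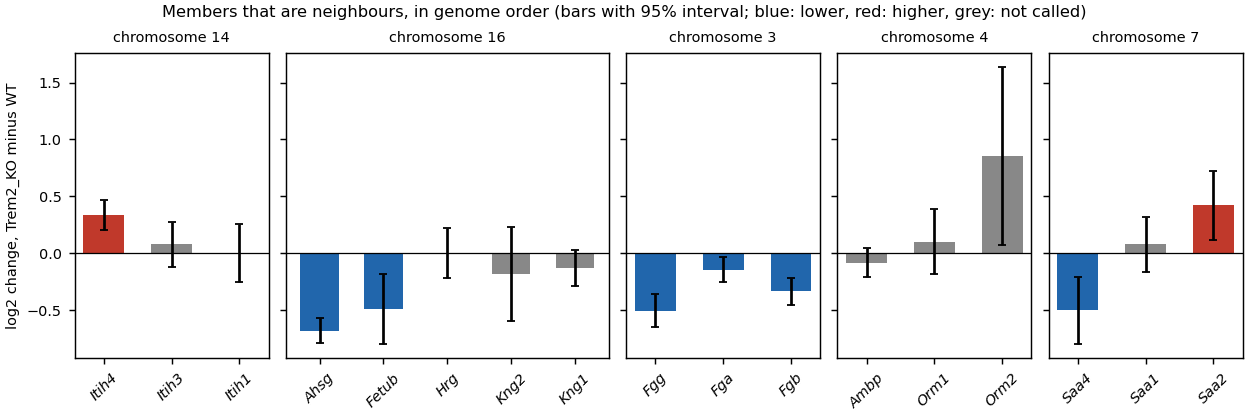
Log2 change (Trem2_KO minus WT) of the 17 members that have another member within 500 kb, in genome order by chromosome, with 95% intervals. Blue, red and grey mark called lower, called higher and not called. All 3 fibrinogen genes are blue, while the Saa genes on chromosome 7 run from -0.50 to 0.42. The Fga call was lost when any of 5 libraries was left out.

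In 1 of 5 neighbourhoods, that of the fibrinogen genes, all members were called in the same direction, lower. Among all genes tested 15.1% were called lower. This count depends on Fga, whose call was lost when any of 5 libraries was left out, with total counts and with DESeq2. The 5 members on chromosome 16, between 22891277 and 23082078 (GRCm38), were Ahsg and Fetub, both called lower, and Hrg, Kng2 and Kng1, none of them called. On chromosome 4 none of Ambp, Orm1 and Orm2 was called. The 5 neighbourhoods together hold 17 of the 39 members.

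Upstream sequence was available for 32 of the 39 members, each taken as 250 bases before the RefSeq start nearest the 5′ end of the deposited gene. The C/EBP motif TTGCNNAA was found in 13 (40.6%) against 9.56% of the 32851 promoters of the RefSeq table. The STAT motif TTCNNNGAA was found in 5 (15.6%) against 7.02%. The FOXA motif TGTTTAC was found in 1 (3.12%) against 3.17%. The HNF4 motif CAAAGTCCA was found in 0 (0%) against 0.384%, a share too low for 32 windows to show a difference. In 4 members (Ahsg, Itih2, Kng2 and Ambp) the window lies inside the deposited gene, since the RefSeq start is downstream of the deposited 5′ end, and 3 of these held a C/EBP match. In the other 28 the C/EBP motif was found in 10 (35.7%) and the STAT motif in 5 (17.9%). The promoters of the RefSeq table were neither limited to 1 per gene nor matched to the members in base composition. The Saa1 and Saa2 windows, 95.6% identical, each count among the 13 C/EBP matches. Both strands were searched, and a match describes letters only. HNF4 and FOXA are hepatocyte factors, while C/EBP and STAT factors act in both hepatocytes and macrophages. Of 14 hepatocyte transcription factor genes 8 were tested and 1 was called (0% higher and 12.5% lower, against 15.3% and 15.1% of all genes tested). It was Creb3l3, a membrane-bound factor of hepatocytes, which changed by -0.46 (SE 0.11, edgeR adjusted p = 0.000727). Hnf4a measured 7.38 ± 0.45 CPM in WT and 7.73 ± 1.25 in Trem2_KO (SD, n = 3) and was not called (picked with its value in view).

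The summed levels of the classes were also set against Alb in the same library, a ratio that no scaling between libraries can move. The inhibitor and matrix genes summed to 0.436 ± 0.0131 of the Alb level in WT and 0.395 ± 0.0139 in Trem2_KO (SD, n = 3). For the clotting genes the ratios were 0.343 ± 0.00576 and 0.316 ± 0.0222, and for the 7 carriers other than Alb 0.365 ± 0.00677 and 0.347 ± 0.0141. The acute phase genes had 0.23 ± 0.00895 in WT and 0.252 ± 0.015 in Trem2_KO. The inhibitor and matrix ratios did not overlap between genotypes (0.426 to 0.451 in WT, 0.381 to 0.409 in Trem2_KO). Ahsg alone made up most of that difference, with a mean of 83.4 CPM in WT and 51.9 in Trem2_KO. The whole class summed to 351 CPM in WT and 307 in Trem2_KO. The clotting ratios did not overlap either (0.339 to 0.35 in WT and 0.291 to 0.329 in Trem2_KO). The fibrinogen genes made up nearly all of the fall in the clotting sum, from 276 to 246 CPM. Their mean CPM in WT and Trem2_KO were 57.9 and 52.4 for Fga, 55.9 and 44.3 for Fgb, and 42.4 and 29.8 for Fgg. The carrier and acute phase ratios overlapped.

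**Figure D4:**
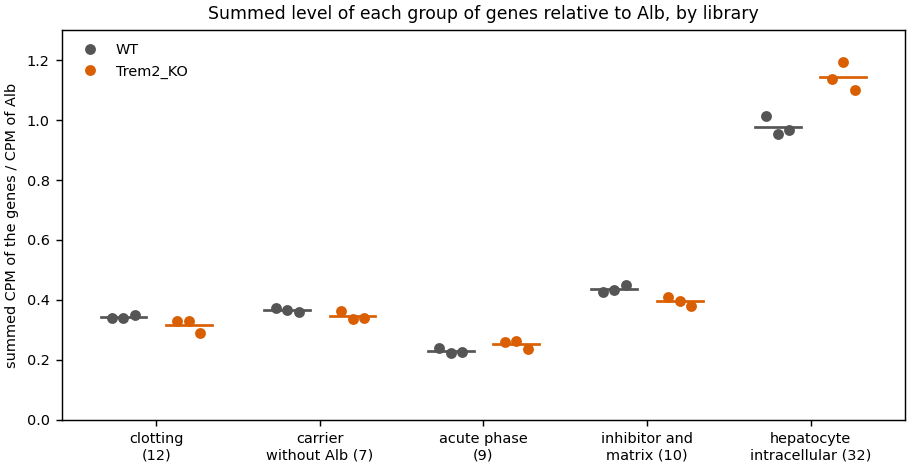
Summed CPM of each class divided by the CPM of Alb in the same library (vertical axis from 0), with 1 point per library and a line at the group mean. The 32 intracellular hepatocyte genes stand higher in Trem2_KO (1.1 to 1.2) than in WT (0.954 to 1.01), while the clotting and inhibitor sums stand lower. Most of the fall of the clotting sum lies in the fibrinogen genes, and most of that of the inhibitor sum in Ahsg.

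Hepatocyte genes whose products stay inside the cell were read for comparison. Of 32 enzymes and binding proteins of hepatocyte metabolism, 17 were called higher and 4 lower, with a median log2 change of 0.28. That is 53.1% higher and 12.5% lower, against 15.3% and 15.1% of all genes tested, so the share called lower is near the background. Their summed level was 778 to 793 CPM in WT and 874 to 910.2 in Trem2_KO. The fatty acid hydroxylase genes Cyp4a14 and Cyp4a10 rose by 3.61 (SE 0.189, edgeR adjusted p = 2.17e-22) and 2.11, and the betaine methyltransferase gene Bhmt by 0.66. Cyp1a2, a drug-metabolizing enzyme gene, changed by -2.17. The abundant Cyp2e1, picked with its value in view, measured 94.9 ± 2.48 CPM in WT and 93.4 ± 2.79 in Trem2_KO (SD, n = 3) and, like Alb, was not called. Whether the secreted and intracellular lists differ was not tested.

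**Figure D5:**
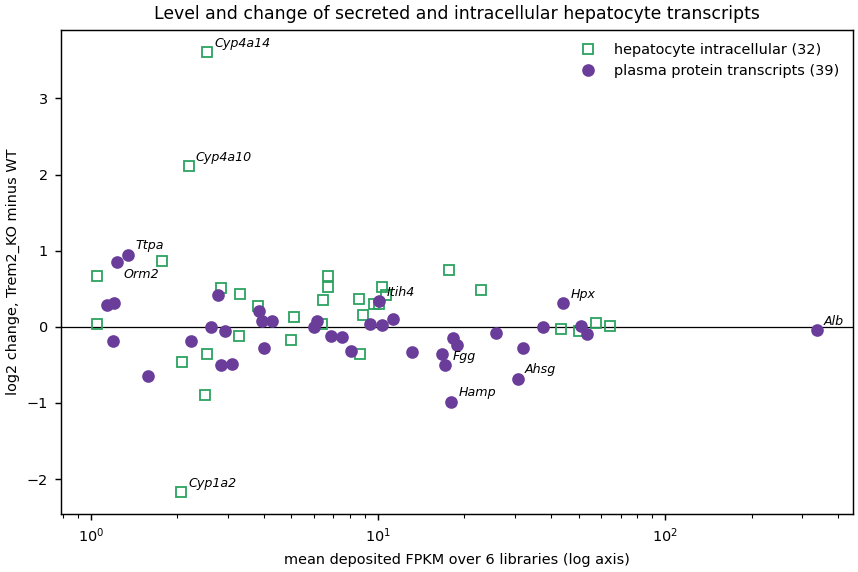
Log2 change (Trem2_KO minus WT, vertical axis) against the mean deposited FPKM over 6 libraries (log axis) for the 39 plasma protein transcripts (filled circles) and 32 intracellular hepatocyte transcripts (open squares). Alb at 337 FPKM lies near 0, Hamp at -0.99 and Ttpa at 0.95 bound the 39 transcripts, and Cyp4a14 at 3.61 lies far above them. Ttpa is drawn with the 39, although its product works inside hepatocytes.

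Receptors through which cells meet these proteins went both ways. Of 24 on that list 18 were tested, and 6 were called higher and 3 lower (33.3% higher and 16.7% lower, against 15.3% and 15.1% of all genes tested). The median log2 change was 0.12. The ferroportin gene Slc40a1, whose product hepcidin targets, measured 5405 ± 83.8 CPM in WT and 4165 ± 61 in Trem2_KO (SD, n = 3), a log2 change of -0.38 (SE 0.0218, edgeR adjusted p = 1.39e-20). Itgax, which encodes an integrin subunit that binds fibrinogen, rose by 2.09, the scavenger receptor gene Cd36 rose by 0.44, and Tlr2, whose product serum amyloid A can engage, changed by -0.38. Lrp1, the gene of the hemopexin-haem receptor, measured 5183 ± 241 CPM in WT and 5760 ± 181 in Trem2_KO (SD, n = 3), a called rise of 0.15. Cd163, the gene of the haptoglobin-haemoglobin receptor, changed by -0.10 and was called lower. Lrp1 and Cd163 were picked with their values in view. The retinol-binding protein receptor gene Stra6 had 0 reads in every library.

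Markers of other cells moved in the same libraries. Of 12 Kupffer cell markers, 9 were called lower and 0 higher, with a summed level of 54243 to 56096 CPM in WT and 48766 to 50024 in Trem2_KO. The 8 monocyte markers, 4 called higher and 1 lower, summed to 299 to 305 CPM in WT and 409 to 418 in Trem2_KO, most of it Nr4a1, and to 98.3 to 100.4 CPM in WT and 108 to 113 in Trem2_KO without it. Stellate cell markers (1 called higher and 0 lower of 9 tested) summed to 52.5 to 57.4 CPM in WT and 58.4 to 60.7 in Trem2_KO. Hgf, the 1 called higher, made up most of that sum, and the other 9 were at 25.1 to 25.9 CPM in WT and 21.4 to 22.1 in Trem2_KO, and the median log2 change of the 9 tested was -0.39. B and plasma cell markers (0 higher and 2 lower of 7 tested) summed to 36.2 to 40.9 CPM in WT and 27.3 to 31.7 in Trem2_KO. Without Cd79b, the largest part, the sums were 20.9 to 22.9 CPM in WT and 15.2 to 16.1 in Trem2_KO. Cholangiocyte markers, none of 5 tested, summed to 0.383 to 1.4 CPM in WT and 0.411 to 0.808 in Trem2_KO. T and NK cell markers, 1 of 8 tested and 0 called, summed to 5.94 to 7.15 CPM in WT and 6.7 to 7.51 in Trem2_KO. Most of that was Cd4, and the other 7 summed to 1.02 to 1.34 CPM in WT and 1.15 to 1.65 in Trem2_KO. The part of these cells in the members' changes was not tested.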

How the data were processed

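RNA of sorted Kupffer cells was measured in 3 WT and 3 Trem2_KO libraries, grouped and numbered by the sample titles. The deposited counts are whole reads per gene without normalization. For alignment and counting, HISAT2 (2.0.5) and featureCounts (1.5.0-p3) are listed per the submitters' processing notes, as are DESeq2 (1.16.1) and the builds GRCm38 and mm10. How strand and multiply fitting reads were handled is not stated. The deposited FPKM values equal count over gene length and 1 constant per library (0.989 to 1.02 times its total), and served for levels and for 3 alternatives.

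The main test was edgeR 4.0.16 in R 4.3.3 (filterByExpr, TMM, robust quasi-likelihood fit, genotype as the only term) over 13776 of 54532 genes, with Benjamini-Hochberg adjustment. Intervals are 95% and use the SE implied by the quasi-F statistic. A count of 3, the limit that 0 reads allow, is 0.173 to 0.192 CPM and covers counting error only. Chi-square over degrees of freedom between libraries of a group was 1.98 to 2.90, more than sampling noise.

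The members and lists were chosen with earlier results of these data known, so counts of members and pathway lists are set beside all genes tested and no list is tested. Every member may be named. Called members and the 3 uncalled members of highest FPKM per class are given per library. Other lists are shown by up to 4 called genes with the smallest p, and any other gene is marked as picked with its value in view. Shared sequence is the share of 50-base stretches of GENCODE M21 transcripts (GRCm38) found in another gene. Some results are not reported here. Alternatives were scalings, filters, DESeq2 1.42.0, limma 3.58.1 on log2 of the deposited FPKM plus 1 or 0.1, a biological coefficient of variation of 0.2 (estimated 0.0378), a replicate block and leaving out each library.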

Additional observations from a re-analysis of the deposited data

How the results depend on the processing

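All 17 called members kept their sign in each of 16 alternatives. Of 624 comparisons of a member with an alternative, 58 lost a call and 3 gained one (Orm2 without WT replicate 3, Lect2 with both filtered log2 FPKM settings). The cause of these differences was not tested, apart from the fixed spread, which widens errors by construction. With a biological coefficient of variation of 0.2 for every gene, 1 member was called higher (Ttpa) and 1 lower (Hamp), 2 intracellular hepatocyte genes higher and 2 lower, and 268 of all genes higher and 103 lower. DESeq2 called 3 members higher and 8 lower, and 1428 of all genes higher and 1384 lower. Limma called 3 members higher and 12 lower on log2(FPKM + 1), and 1508 of all genes higher and 1661 lower. On log2(FPKM + 0.1) it called 3 members higher and 12 lower, and 1488 of all genes higher and 1650 lower. On unfiltered log2(FPKM + 1) it called 1 member higher and 8 lower, and 11 intracellular genes higher and 3 lower. Of all genes it then called 960 higher and 1019 lower. The replicate block called 4 members higher and 12 lower, losing F5 (edgeR adjusted p = 0.0511), and 2119 of all genes higher and 2111 lower. Same-numbered libraries showed little shared deviation (r across genes = -0.00592, 0.0119 and 0.0501). Such values cannot exclude a shared preparation, and the labels give no pairing. The median log2 change of the members was -0.0239 with total counts. For the intracellular genes it was 0.314 with total counts and 0.238 on log2(FPKM + 1), filtered or not. Leaving out 1 library gave 3 to 4 members called higher and 9 to 11 lower, 16 to 17 intracellular genes higher and 3 to 4 lower, and 1717 to 1956 of all genes higher and 1646 to 1953 lower. Median log2 changes then ranged from -0.0754 to -0.0456 for the members, -0.136 to -0.0732 for clotting, -0.083 to -0.0131 for carriers, 0.00373 to 0.0872 for acute phase, -0.169 to -0.123 for inhibitor and matrix genes and 0.217 to 0.321 for intracellular genes. Depth limits Orm2, Lect2, F9 and Kng2, whose SE was 0.389, 0.311, 0.211 and 0.206.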

Other observations

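Ratios of 2 members within a library, picked with the values in view and given with no test, do not depend on library scaling. In WT the Fgg reads per Fga read were 0.691, 0.73 and 0.773, and in Trem2_KO they were 0.589, 0.612 and 0.502. Hpx and Hp encode the plasma scavengers of free haem and of haemoglobin. Their ratio was 0.72, 0.731 and 0.725 in the WT libraries, against 0.927, 0.828 and 0.931 in the Trem2_KO libraries. The Saa2 to Saa4 ratio took values of 1.04, 0.817 and 0.712 for WT, and 1.57, 1.93 and 1.39 for Trem2_KO. For Ahsg over its neighbour Hrg the WT libraries gave 6.64, 7.66 and 6.6 while the Trem2_KO libraries gave 4.61, 3.76 and 4.7. The libraries of the groups did not overlap in these 4 pairs, which were picked for that difference.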
